A study of Mus musculus with 7 samples.

Results

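The effect of 7,12-dimethylbenz[a]anthracene (DMBA) on the wild-type mammary gland was examined by comparing C57 glands kept in organ culture for 24 days with DMBA and C57 glands kept for 24 days without it. Each condition was measured on 1 CodeLink Mouse Whole Genome array, so 2 of the 7 arrays of the series were compared and the other 5 are shown as context. The comparison covered 23042 of the 34967 gene probes, those whose spot the scanner software called good on both arrays. A level is given throughout as the log2 of a probe's background-subtracted intensity over the median of all gene probes of that array, so that 0 is the array median. A log2 ratio is the level with DMBA minus the level without DMBA, and over 2-fold means a log2 ratio above 1 or below -1. With 1 array per group there is no replicate check, and no test was possible.

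All glands came from mice 4 weeks old. By the labels, the mice were primed over 9 days with estrogen (1 µg) plus progesterone (1 mg), and glands were then grown for 10 days in serum-free medium with insulin, prolactin, aldosterone and hydrocortisone, followed by 14 days with insulin alone (regression). DMBA was given at 2 µg/ml from Day 3 for 24 h. For the array study the methods give another pretreatment, 5 daily doses of EGF (25 ng) with progesterone (1 mg), and RNA of 5 mice pooled per group, for wild-type, αERKO and βERKO glands. Neither the pretreatment nor the pooling is given separately for the glands without DMBA, and a vehicle is not named in the sources used here, so a difference in any of these and DMBA cannot be told apart. The context arrays held C57 glands after 10 days without DMBA, Balb/c glands after 24 days, Balb/c glands after 24 days with vitamin D5 (no dose is given), and αERKO and βERKO glands (C57BL6/129SV) after 24 days, which lack the genes of estrogen receptors α and β. The titles name DMBA for neither knockout and for neither Balb/c array. The methods give DMBA for the knockouts. The Esr2 probe, at 0.87, was brightest of the 7 arrays on the one labelled βERKO, and where this probe lies relative to the deleted part of the gene is not given in the sources used here.

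In organ culture the whole gland is kept, so epithelial ducts and alveoli lie in their own fat pad with fibroblasts, vessels and resident macrophages. The growth-promoting hormones of the medium make the alveoli expand, and withdrawal of all but insulin lets the epithelium regress, as after weaning. DMBA is a polycyclic aromatic hydrocarbon that binds the aryl hydrocarbon receptor. Cytochromes P450 of family 1 turn it into reactive epoxides that bind DNA, and conjugating enzymes, many under the transcription factor NRF2, clear these products. A lesion that stays behind in regressed glands is counted as a preneoplastic outgrowth in this assay.

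The tissue label fitted its defining markers on both arrays. The luminal keratins were bright, with Krt18 at a level of 7.42 with DMBA and 8.59 without, and Krt8 at 4.61 and 5.64. So were the basal keratins, with Krt5 at 6.43 and 7.07 and Krt14 at 5.19 and 6.48. Adipoq (adiponectin, made by fat cells) stood at 8.88 and 8.05. In whole tissue, fewer cells of a type and less RNA per cell cannot be told apart, which holds for every cell type named here. Good spots made up 74.2% of gene probes on the DMBA array and 71.2% on the array without DMBA, and median intensities were 51.5 and 44.9 over a local background of 81 and 83. Probes with the same accession differed in log2 ratio with an SD of 0.31 (586 pairs), which was 0.55 where the dimmer probe lay at or below the array median and 0.20 where it lay over 8 times above. This SD measures disagreement between probes, not between mice or cultures.

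Of the 23042 probes, 1573 (6.83%) were over 2-fold higher with DMBA, whereas 1139 (4.94%) were lower by over 2-fold. The probes matched 13971 named genes, of which 10806 were good on both arrays by their brightest probe. Of these genes, 999 (9.24%) were over 2-fold higher and 625 (5.78%) over 2-fold lower, and these shares are the background for every list below. Beyond 4-fold the counts were 254 higher and 72 lower, and beyond 8-fold 48 and 17. A further 849 genes were good with DMBA only and 495 without DMBA only. The median log2 ratio of all probes was -0.15 and shifted to as much as -0.02 under other scalings, and with cyclic loess or normexp background correction 70.3% of the probes over 2-fold were higher, and 72.3% when the ratios were centred on their median, against 58.0%.

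The array with DMBA stood apart from the other wild-type arrays. Among the 10 pairs of the 5 wild-type arrays, the 4 pairs that included it had the largest shares of probes over 2-fold apart. That share was 11.8% against the C57 24-day array without DMBA, 10.8% against the C57 10-day array, and 13.4% and 13.2% against the Balb/c arrays without and with vitamin D5. Pairs without it ranged from 1.84% to 9.26%. Of the 1573 probes higher with DMBA, the DMBA array was the brightest of the 5 in 1424 (90.5%), against 23.4% of all 23042 probes, and the array without DMBA was the dimmest in 28.2%, against 11.5%. Among the 1139 lower probes the DMBA array was the dimmest in 85.3%, against 32.3% of all probes, and the array without DMBA was also the brightest in 70.6%, against 36.0%. The higher probes thus mostly marked a high DMBA array, whereas many lower probes combined a low DMBA array with a high array without DMBA. Choosing probes over 2-fold apart favours such extremes, so these shares are descriptive.

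**Figure D1:**
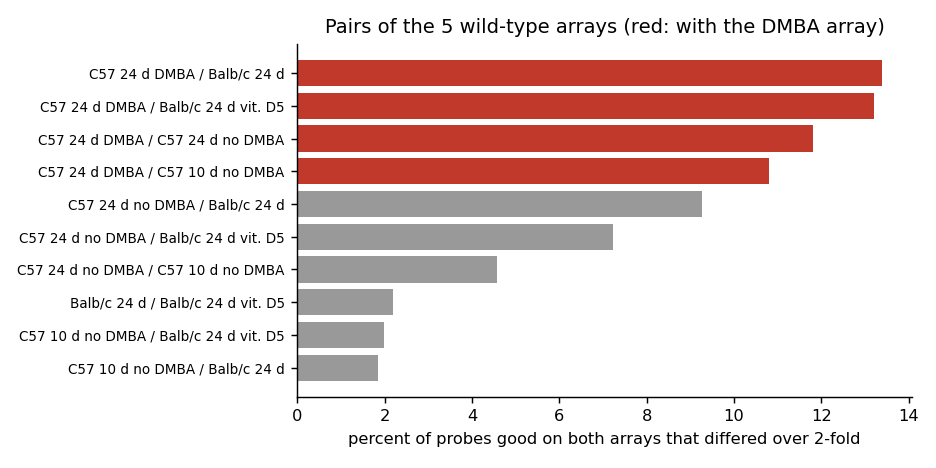
Percent of probes good on both arrays that differed over 2-fold (horizontal axis) for each of the 10 pairs of the 5 wild-type arrays, 1 bar a pair. The 4 pairs that include the DMBA array (red) lie between 10.8% and 13.4%, above the 6 other pairs, which end at 9.26%.

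Among the named genes good on both arrays, the largest single difference was in a detoxifying enzyme that was lower with DMBA. Gsta2, an alpha-class glutathione S-transferase, had a raw intensity of 142 with DMBA and 7280 without, a log2 ratio of -5.88. Gsta1, its close paralog, had 177 and 7650, a log2 ratio of -5.63. The probes of such near-identical genes may share their signal, so the 2 cannot be counted as separate events. On the 3 other wild-type arrays Gsta2 stood between 8.11 and 8.29 and on the βERKO array at 6.72, so among these only the DMBA array, at 1.46, was low. The αERKO array was lower still, at -1.34.

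The 15 genes with the largest log2 ratios upward included Mup1, Col3a1, Lum, Dcn, Thbs2, Fbn1, Pdgfrb, Lyve1, Mfap5, P2ry6, Kdr, Ptpro, Sox18 and Klk1b5, with values from 4.91 down to 3.42. Of these, 7 are on the fibroblast matrix list used here and 3 on the endothelial list. Mup1, a major urinary protein and member of a family of near-identical genes, stood at 6.01 with DMBA and 1.10 without, and at 9.56 on the αERKO array. The 15 with the largest log2 ratios downward were Gsta2, Gsta1, Serpinb1b, Serpinb9e, Fgfbp1, Serpinb9g, Crct1, Ptgs2, Klk6, Akr1c18, Cyp2f2, Adm, Adh7, Rnf183 and Acox2, with log2 ratios from -5.88 to -3.13. They held glutathione transferases, intracellular serine protease inhibitors and enzymes of oxidative metabolism, among them Cyp2f2 (a cytochrome P450) at 3.64 and 7.09. Ptgs2, the inducible cyclooxygenase that starts prostaglandin synthesis, stood at -0.82 with DMBA and 3.00 without, and between 2.53 and 3.84 on the other wild-type arrays. Spots that were good on 1 array and near background on the other give bounds. With DMBA, Ifi205 was at least 15.5-fold higher, Dkk3 at least 10.2-fold, Gxylt2 at least 8.38-fold, Cd209b at least 8.18-fold and H2-Eb1 at least 7.08-fold. Nkain4 was at least 35.0-fold lower, Trex2 at least 15.2-fold, Sult2b1 at least 13.1-fold, Ddx24 at least 10.1-fold and Serpinb9d at least 6.67-fold. The Nkain4 bound rests on 1 bright spot, since its level of 3.26 without DMBA was above those of the 6 other arrays, all at or below -1.49.

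**Figure D2:**
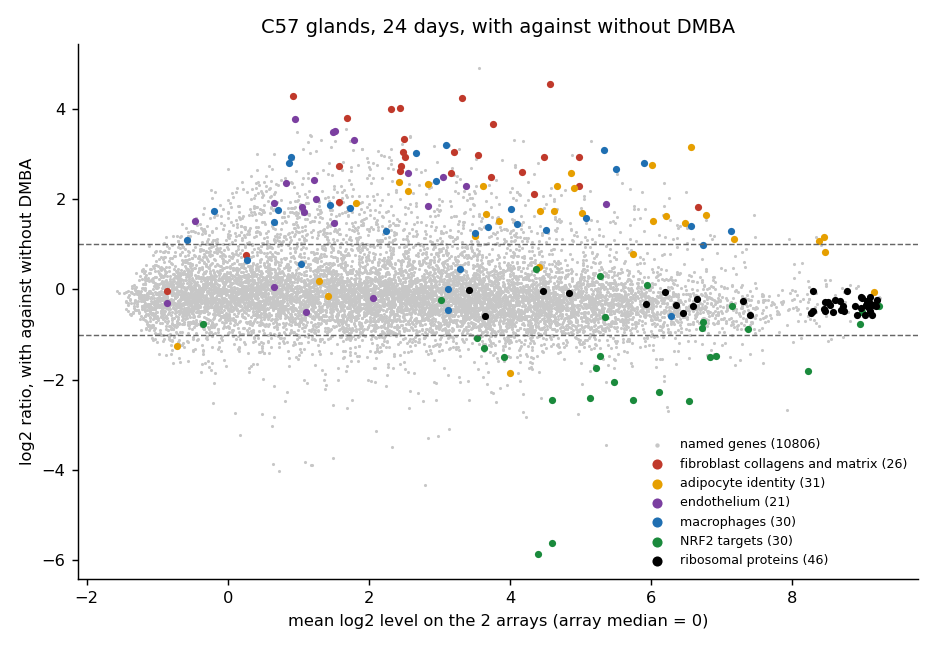
Log2 ratio with against without DMBA (vertical axis) over the mean log2 level on the 2 arrays (horizontal axis) for the 10806 named genes good on both arrays, with 6 lists in colour and dashed lines at 2-fold. Matrix, vessel, macrophage and adipocyte genes lie mostly above the upper line, NRF2 targets mostly below 0, and ribosomal protein genes near 0 at the bright end.

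Targets of the aryl hydrocarbon receptor were not higher at 24 days. This receptor, when bound by an aromatic hydrocarbon, pairs with ARNT and occupies DNA elements with the core GCGTG. Of 12 target genes measured, 5 were over 2-fold lower and 0 higher, with a median log2 ratio of -0.63 against -0.16 over all named genes. The median of the targets was -0.43 at its smallest in other settings. Cyp1a1, the enzyme most readily induced by the receptor, stood at -0.21 with DMBA and -0.18 without, a log2 ratio of -0.03. Its level was 1.88 on the C57 10-day array, 2.65 on the βERKO array and close to 1.1 on both Balb/c arrays (1.12 and 1.10), so both arrays compared lay below those 4. Cyp1b1, which activates DMBA in the mammary gland, stood at 5.06 and 5.64, a log2 ratio of -0.58, and at 7.47 after 10 days. The feedback repressor Ahrr had a log2 ratio of -0.20 and the ADP-ribosyltransferase Tiparp one of -0.13. These differences lie within the SD of 0.31 between probes, apart from that of Cyp1b1. The targets that were lower were Gsta1, Nqo1, Aldh3a1, Slc7a5 (within 2-fold with normexp background correction, -0.89) and Serpinb2, of which Nqo1 and Gsta1 also stand on the NRF2 list. Ahr itself stood at 2.76 and 3.92, a log2 ratio of -1.16 that was -0.96 at its smallest in other settings, and its partner Arnt at 3.28 and 3.42. The 5 genes of the receptor complex that were measured had a median of -0.71, which was -0.31 at its smallest in other settings. Glands were collected at Day 24, long after the exposure of 24 h that began on Day 3.

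The stretches before the starts of 4 of these genes are printed to show the core letters in the promoters of genes whose level differed little. They were read from RefSeq's promoter table (GRCm38.p6), 5′ to 3′ on the gene's strand, with GCGTG or its complement CACGC in capitals. Cyp1a1 lies at chr9:57697519-57697603 on the plus strand, Cyp1b1 at chr17:79715093-79715177 on the minus strand, Tiparp at chr3:65528237-65528321 on the plus strand and Ahrr at chr13:74292394-74292478 on the minus strand.
Cyp1a1: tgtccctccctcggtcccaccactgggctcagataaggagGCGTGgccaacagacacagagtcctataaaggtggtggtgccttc
Cyp1b1: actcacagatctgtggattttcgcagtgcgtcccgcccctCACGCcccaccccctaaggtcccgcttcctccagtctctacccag
Tiparp: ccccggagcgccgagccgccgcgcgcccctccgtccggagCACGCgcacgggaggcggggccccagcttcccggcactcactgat
Ahrr: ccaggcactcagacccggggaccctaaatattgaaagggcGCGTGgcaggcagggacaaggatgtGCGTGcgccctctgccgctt
In windows of 300 bases, 250 before the start and 50 after it, GCGTG was found on either strand in 6 of the 9 measured targets with a promoter in the table (66.7%). The share was 35.2% of the 27025 genes whose promoters were counted and 51.4% of the 8640 measured ones. Promoters on a single chromosome were left out of these counts. It was 43.7% of the genes over 2-fold higher and 54.1% of those over 2-fold lower. A match of 5 letters is a description and not a bound site.

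Enzymes that handle DMBA were on the lower side where they differed. Of 16 genes for its activation and clearance, 5 were over 2-fold lower and 1 was over 2-fold higher. The median log2 ratio was -0.54, and -0.18 at its smallest in other settings. Akr1c18, an aldo-keto reductase that also inactivates progesterone, stood at 0.58 with DMBA and 4.08 without, and above 5 on the Balb/c arrays (6.06 and 5.28). Gsta4, which conjugates products of lipid oxidation, stood at 4.98 and 7.25, a log2 ratio of -2.27.

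Targets of NRF2 were the list with the lowest median. NRF2 is the factor that turns on glutathione synthesis, quinone reduction and drug conjugation when cells meet electrophiles or oxidants. Of 30 targets measured, 16 were over 2-fold lower and 0 over 2-fold higher, with a median log2 ratio of -1.19. Gpx2, a glutathione peroxidase of epithelia, stood at 5.29 with DMBA and 7.78 without, a 5.59-fold difference. Gclc, the catalytic subunit of the enzyme that limits glutathione synthesis, stood at 4.50 and 6.96, a 5.5-fold difference. Nqo1, the quinone reductase, stood at 4.34 and 6.09. All 3 were also bright on the other wild-type arrays, where Gclc lay between 6.53 and 6.82, and on the βERKO array, at 6.82. On the αERKO array Gclc stood at 3.06, Nqo1 at 0.47 and Gpx2 at -0.04. The DMBA array was the dimmest of the 5 wild-type arrays for 25 of the 30 targets, while the array without DMBA was the brightest for 13. The median level of the targets was 5.01 with DMBA, against 6.57 to 7.03 on the other wild-type arrays and 3.06 on the αERKO array. The luminal epithelium list was also lower on the DMBA array. Its summed level (intensities over the array median, added up) was 1810 with DMBA, 2740 without and 1360 on the αERKO array. The summed level of the NRF2 targets was 2920, 5560 and 1800 on these arrays. The part of the luminal epithelium in the difference of the NRF2 targets was not tested.

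Gclm, the other subunit of the same enzyme, and Txnrd1, a thioredoxin reductase, had log2 ratios of -1.47 and -1.48. They are shown, chosen after their values were seen, because their upstream sequence holds the core letters of the antioxidant response element, TGACNNNGC, printed in capitals as they read on the complementary strand. Gclm lies at chr3:122245383-122245471 and Txnrd1 at chr10:82859074-82859162, both on the plus strand of GRCm38.p6.
Gclm: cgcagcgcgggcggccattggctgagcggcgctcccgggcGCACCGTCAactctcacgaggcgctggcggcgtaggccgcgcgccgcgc
Txnrd1: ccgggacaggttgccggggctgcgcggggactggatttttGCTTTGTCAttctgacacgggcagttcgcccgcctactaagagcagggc
On either strand, these letters were found in 8 of the 25 measured targets with a promoter window (32.0%). The share was 14.0% of all genes whose promoters were counted and 16.2% of the measured ones. Among the 11 targets over 2-fold lower that have a window, 3 held them (27.3%).

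Targets of p53 were not higher on the DMBA array. The protein p53 turns on arrest and death genes after DNA damage. Of 24 targets measured, 0 were over 2-fold higher and 5 over 2-fold lower. The median log2 ratio of the list was -0.74, and -0.46 at its smallest in other settings. Bax, which opens mitochondria to death signals, stood at 4.70 and 6.28, Ccng1 (cyclin G1) at 4.92 and 6.29, and Pmaip1 (NOXA) at 2.31 and 3.67. Cdkn1a, the inhibitor p21, stood at 6.99 and 7.79, and Mdm2, which degrades p53, at 0.13 and 1.08. For 17 of the 24 targets the array without DMBA was the brightest of the 5 wild-type arrays, and the DMBA array was the dimmest for 10. Bax, for example, lay between 5.21 and 5.59 on the 3 other wild-type arrays, so its log2 ratio joins a low value with a high one. Among 31 DNA repair genes, 1 was over 2-fold higher, the glycosylase gene Mutyh at a log2 ratio of 1.00 that was 0.54 with normexp background correction, and 0 were lower.

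Stress genes were also on the lower side. Of 27 heat shock and chaperone genes, 7 were over 2-fold lower and 1 higher, and the array without DMBA was the brightest of the 5 wild-type arrays for 21. The inducible chaperone Hspa1a stood at 4.33 with DMBA, 6.37 without, and 5.41 to 6.11 on the other wild-type arrays. Hsp90aa1, the inducible HSP90, stood at 6.47 and 8.04, with 7.07 to 7.19 on the others. Of 27 genes of the integrated stress response, which slows translation when amino acids or folding fail, 9 were over 2-fold lower and 1 higher. Its factor Ddit3 (CHOP) stood at 5.22 and 7.14, with 5.62 to 6.27 on the other wild-type arrays, and Ppp1r15a, which restarts translation, at 3.97 and 6.07. Of 27 AP-1 and immediate early genes, 5 were lower and 2 higher, led by Ier3 (log2 ratio -2.61) and Fosl1 (-2.45) on the lower side and by Klf2 (1.90), a factor of endothelium under flow, on the higher side. Of 30 genes of hypoxia and glycolysis, 5 were lower and 0 higher. Among them Vegfa, the main growth factor for vessels, stood at 2.90 and 5.01, and Adm, a vessel-dilating peptide, at 1.19 and 4.49.

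The matrix of the stroma showed the largest shift upward. Of 26 fibroblast collagen and matrix genes measured, 24 were over 2-fold higher, 0 were lower, and the median log2 ratio was 2.93. Col3a1, fibrillar collagen III, had a raw intensity of 5900 with DMBA and 218 without, which is 23.6-fold. Dcn (decorin) stood at 5.44 and 1.19, and Lum (lumican) at 3.07 and -1.23, both small proteoglycans that bind collagen fibrils. Fbn1, the microfibril protein fibrillin, stood at 4.31 and 0.31, and Pdgfrb, the receptor of pericytes and fibroblasts, at 3.59 and -0.21. Another 10 members, Col1a1 and Col1a2 among them, were good with DMBA only, and 0 without DMBA only. The DMBA array was the brightest of the 5 wild-type arrays for 25 of the 26, while the array without DMBA was the dimmest for 9. Dcn, Lum, Fbn1 and Pdgfrb were among those 9. Dcn lay between 3.11 and 4.35 on the 3 other wild-type arrays, so its log2 ratio joins a high value with a low one. The median level of the 26 genes was 4.45 with DMBA against 1.15 to 1.86 on the other 4 wild-type arrays, and 4.41 and 3.35 on the αERKO and βERKO arrays.

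Genes that remodel or anchor this matrix were also higher. Of 21 metalloproteinase and inhibitor genes, 13 were over 2-fold higher and 2 lower, with a median log2 ratio of 1.31 that was 0.99 with normexp background correction. Mmp2, a gelatinase, stood at 4.00 and 1.32, and its inhibitor Timp1 at 4.96 and 2.06. The lower members were Plaur (-1.72), the urokinase receptor, and Mmp10 (-1.63), a stromelysin. Of 16 basement membrane genes 8 were higher and 0 lower, with a median of 1.04. Nid1 (nidogen) stood at 4.48 and 2.45 and Col4a2 (collagen IV) at 4.38 and 2.39, while the epithelial laminin chain Lamb3 had a log2 ratio of -0.70.

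Endothelial genes were the list with the next highest median, 1.92, with 17 of 21 members over 2-fold higher and 0 lower. Kdr, the VEGF receptor of endothelium, stood at 3.27 with DMBA and -0.24 without. Lyve1, a marker of lymphatic endothelium and of some macrophages, stood at 2.83 and -0.94, and Sox18, a factor of vessel formation, at 3.23 and -0.26. Kdr lay at or below -1.46 on the 3 other wild-type arrays, so its level without DMBA was already above theirs. The lymphatic genes Prox1 (-0.30) and Flt4 (-0.19) were within 2-fold. The second probe of Plvap, a fenestra protein, had a log2 ratio of 1.12 where the first had 3.32.

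Macrophage genes were higher, and chemokines were divided. Of 30 macrophage genes 23 were over 2-fold higher and 0 lower, with a median of 1.47. The complement chain C1qc stood at 6.87 and 3.78, the mannose receptor Mrc1 at 4.18 and 1.15, and the scavenger receptor Marco at 4.69 and 1.49. C1qc lay between 0.12 and 0.73 on the other 3 wild-type arrays, below both C57 24-day arrays. Of 36 chemokines and cytokines 14 were over 2-fold higher and 8 lower. On the higher side were CC chemokines, among them Ccl8 at 3.46 and 0.34 and Ccl7 at 3.29 and 0.83. Ccl6, Ccl9, Ccl3, Ccl5, Ccl12, Ccl19 and Ccl2 were also over 2-fold higher. So were the CXC chemokines Cxcl15 (2.18), Cxcl12 (1.79) and Cxcl10 (1.27), while Cxcl3 (0.54) was within 2-fold. On the lower side were the CXC chemokines Cxcl5 (-2.11), Cxcl2 (-1.75), Cxcl1 (-1.63) and Cxcl16 (-1.49), and the CC chemokines Ccl28 (-1.78) and Ccl25 (-1.10). Spp1 (osteopontin) was lower too, at 6.67 and 8.11. Of 32 acute phase and defence genes 16 were higher, led by the complement genes C1qc, C1qa and Cfd. Of the higher ones, C1qa, C1qb, C1qc, Lyz1 and Lyz2 are also on the macrophage list, and Cfd and Orm1 on the adipocyte list. The 2 lower ones were the protease inhibitor gene Slpi, at 6.58 and 9.26, and its relative Wfdc2. Of 26 interferon-stimulated genes 9 were higher and 0 lower, led by Iigp1 (2.25, with a second probe at -0.40) and Rtp4 (2.18). Ifit3 (2.04) and Ifit1 (1.84) were dim without DMBA and came under 2-fold with normexp background correction.

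Lymphocyte, mast cell, muscle, nerve, red cell and MHC class II lists had 1 to 3 members each over 2-fold, all of them higher. Of 18 T and B cell genes 1 was over 2-fold higher, Il7r at 1.32 with a second probe at 0.81, and 0 were lower. The log2 ratio was below 0 for 13 of the 18, with a median of -0.10. A further 5 genes of this list were good without DMBA only and 2 with DMBA only. The defining T cell gene Cd3e and the B cell gene Ms4a1 were not good on either array. Of 11 mast cell and granulocyte genes 3 were higher, Cma1 (2.24) and Cpa3 (1.68), which are mast cell proteases, and Kit (2.82-fold). Of 18 muscle genes 3 were higher, Myl1, Car3 and Acta1, while 11 had a log2 ratio below 0 and the list median was -0.10. The summed level of the list was 182 with DMBA and 83.5 without, against 4000 on the αERKO array. Car3, which is also on the adipocyte list, made up most of the sum with and without DMBA, at levels of 7.21 and 5.74. Hba-a1, a hemoglobin chain, stood at 5.18 and 3.02, and with Car2 it made up the 2 of 6 red cell genes that were higher. Of 9 nerve and Schwann cell genes 3 were higher, S100b and Pmp22 among them, and of 7 MHC class II genes 2, H2-Aa (2.28) and H2-Oa. A further 3 MHC class II genes, Cd74, H2-Eb1 and H2-DMb1, were good with DMBA only and 0 without DMBA only. For muscle genes these counts were 8 and 3, for mast cell and granulocyte genes 4 and 1, and for nerve genes 2 and 0. With normexp background correction Myl1 (0.82), Car2 (0.82), S100b (0.61) and H2-Oa (0.67) came under 2-fold.

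Adipocyte genes were higher with DMBA, and higher on both C57 24-day arrays than on the 3 other wild-type arrays. Of 31 identity genes 23 were over 2-fold higher and 2 lower, with a median of 1.62, and of 23 genes of fatty acid and triglyceride synthesis 13 were higher and 0 lower, with a median of 1.06. Retn (resistin) stood at 8.14 with DMBA and 4.99 without, Cfd (adipsin) at 7.39 and 4.63, and the insulin-responsive glucose transporter gene Slc2a4 at 3.63 and 1.24. Fasn, fatty acid synthase, stood at 6.94 and 4.79, and Agpat2, a step of triglyceride assembly, at 6.04 and 3.78. Fabp4, the fatty acid carrier, was bright on both arrays and differed by -0.07. The 2 lower genes, Cidea (-1.85) and Ucp1 (-1.26), are known for brown fat. Over the identity list the median level was 5.80 with DMBA, 3.78 without, at or below 1.81 on the other wild-type arrays, 6.42 on the αERKO array and 4.92 on the βERKO array. Of 22 cholesterol synthesis genes 4 were higher and 0 lower. Insig1 (1.81) among them came under 2-fold with normexp background correction (0.75).

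**Figure D3:**
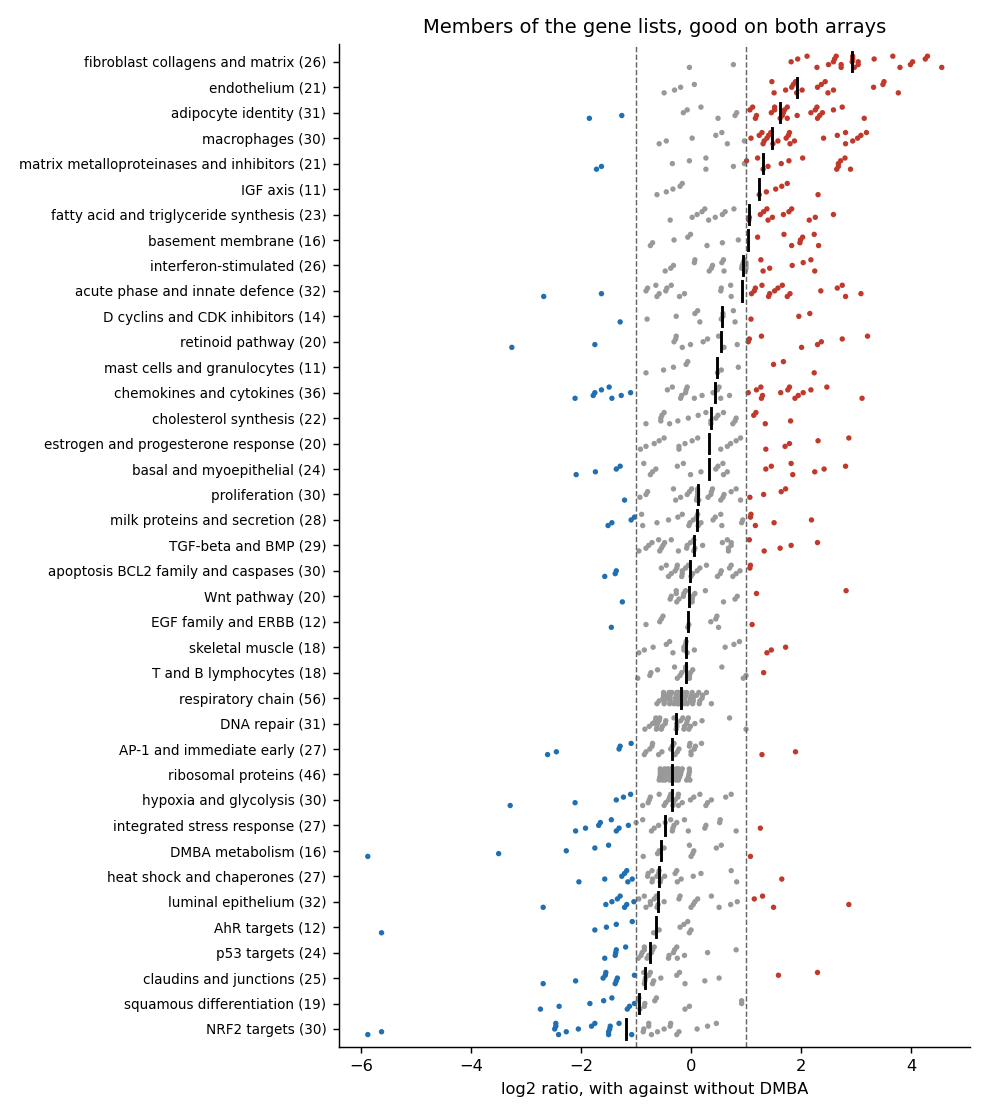
Log2 ratio with against without DMBA (horizontal axis) of each list member good on both arrays, 1 point a gene, for the lists with 11 or more such genes (number in brackets), in order of their median (black tick), with red points over 2-fold higher and blue points over 2-fold lower. The fibroblast matrix list has the highest median, 2.93, and the NRF2 list the lowest, -1.19.

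Epithelial genes were on the lower side, with exceptions. Of 32 luminal genes 8 were over 2-fold lower and 4 higher. The median log2 ratio of the list was -0.61, and -0.27 at its smallest in other settings. Cldn4, a claudin that seals tight junctions, stood at 4.88 and 7.58, and Cldn7 at 5.37 and 6.92. Krt18 (-1.17) and Krt8 (-1.04) were lower by little over 2-fold, and came within 2-fold with cyclic loess (-0.78 for both). Epcam, the general epithelial adhesion protein, had a log2 ratio of -0.63. The higher luminal genes included Tnfsf11 (RANKL), the signal that progesterone-receptor cells send to their neighbours, at 5.32 with DMBA and 2.45 without. It lay between -2.27 and -1.38 on the 3 other wild-type arrays, where 2 of the 3 spots were not good, and at 1.37 on the αERKO array. Kit, the receptor of luminal progenitors and of mast cells, stood at 4.79 and 3.29.

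Among the junction genes 9 of 25 were over 2-fold lower and 2 higher. Crb3, a polarity protein of epithelium, stood at 2.62 and 4.73 and Ocln (occludin) at 3.11 and 4.71. The 2 higher ones were Cldn5, a claudin of endothelium, at 4.52 and 2.22, and Cldn10, with a log2 ratio of 1.59. Of 19 squamous differentiation genes 8 were lower and 0 higher, among them S100a14 at 3.24 and 5.64 and Krt6a at 1.64 and 3.48. Without DMBA Krt6a was close to its level on the Balb/c array, 3.45, and below its highest wild-type level, 5.41.

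The basal list held genes that differed in each direction. Of 24 genes 7 were over 2-fold higher and 4 lower, with a median of 0.32. The contractile genes Cnn1 (calponin, 5.79 and 2.98), Myh11 (smooth muscle myosin, 5.00 and 2.59) and Tagln (5.71 and 3.45) were higher, and so was Acta2 (1.85). Vessel wall cells express these 4 too. The other higher genes were Sparc (1.82), Vim (1.46) and Snai2 (1.36), which stromal cells also express. The keratins Krt17 (-2.09) and Krt14 (-1.29), the integrin Itgb4 (-1.36) and Procr (-1.74) were lower. Krt5 had a log2 ratio of -0.64, and stood at 8.43 to 8.82 on the other wild-type arrays, above both C57 24-day arrays. Krt14 came within 2-fold with cyclic loess.

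**Figure D4:**
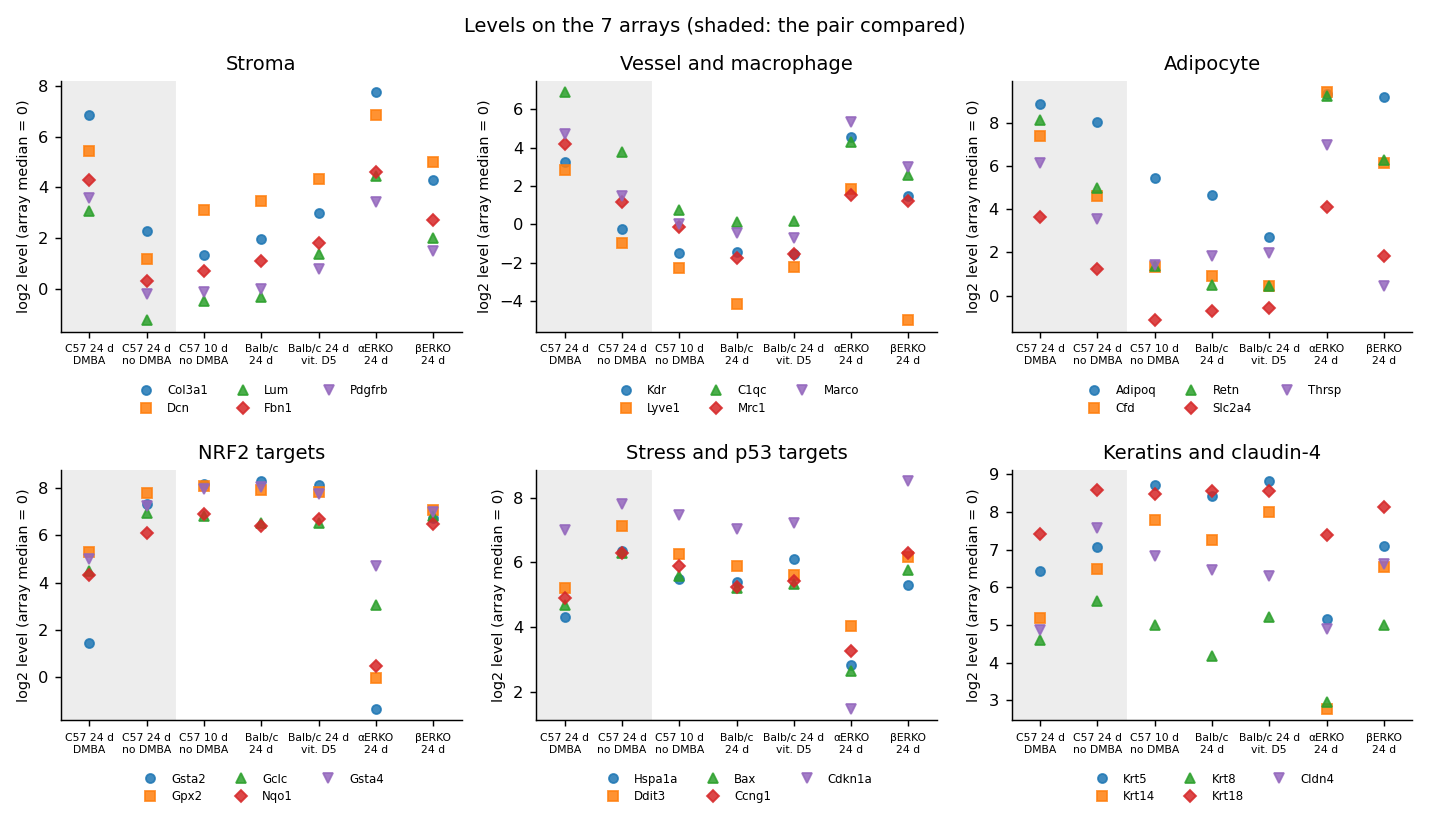
Log2 level (vertical axis, array median 0) of 5 genes a panel on each of the 7 arrays (horizontal axis), 1 point an array, with the pair compared shaded. Stromal and vessel genes are high with DMBA and low without, as for Col3a1 at 6.84 and 2.28, while NRF2 targets are low with DMBA and on the αERKO array.

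Milk genes were divided. Csn2, β-casein, stood at 5.79 with DMBA and 5.39 without, while it lay between -1.60 and 0.40 on the 3 other wild-type arrays and near -2 on both knockouts (-2.01 and -1.99), where its spots were not good. Of 28 milk and secretion genes 5 were over 2-fold higher and 4 lower. Glycam1 was the highest of them, at a log2 ratio of 2.19, and Lalba, α-lactalbumin, the lowest, at -1.51 (-0.91 with normexp). Wap had no named probe.

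The 8 steroid and prolactin receptor genes good on both arrays were all within 2-fold. Pgr, the progesterone receptor, stood at 0.69 and -0.03, and Prlr, the prolactin receptor, at 2.86 and 2.31. Esr1 was good with DMBA only, at -1.02, which bounds the difference at no less than 1.52-fold higher. Esr2 was good without DMBA only, at -0.55, at least 2.5-fold lower with DMBA, and both of these levels lay below the array median. Of 20 genes that estrogen or progesterone regulate, 5 were over 2-fold higher and 0 lower, Tnfsf11 (2.87), Igf1 (2.31), Cxcl12 (1.79), Calca (1.71) and Tsc22d3 (1.36). Igf1, which stroma makes for epithelium, stood at 4.85 and 2.54, and at 0.02 or below on the 3 other wild-type arrays.

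Growth factor pathways were measured by 4 lists. Of 11 genes of the IGF axis 6 were over 2-fold higher and 0 lower, with a median of 1.24 that was 0.73 when all probes of a gene were averaged. The binding protein genes Igfbp5 (8.28 and 6.63) and Igfbp4 (1.90 and 0.15) were higher, while the receptors Igf1r (-0.45) and Igf2r (-0.62) were within 2-fold. Igfbp5 was low without DMBA relative to the 3 other wild-type arrays, which lay at or above 8.03. The second probe of Grb10 had a log2 ratio of -0.08 where the first had 1.54. Among 20 Wnt genes 2 were higher and 1 lower. Wif1, a secreted Wnt inhibitor, stood at 3.05 with DMBA and between 0.16 and 0.30 on the 4 other wild-type arrays. Of 12 genes of the EGF family 1 was higher, Nrg4 (1.11), and 1 lower, Hbegf (-1.45). Of 29 TGF-beta and BMP genes 5 were higher and 0 lower, among them Ltbp2 (2.30) and Bmp6 (1.82).

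Cell cycle genes were low on both arrays, and by median level also on the αERKO (0.98) and βERKO (1.42) arrays. Of 30 proliferation genes 4 were over 2-fold higher and 1 lower, with a median of 0.13 but a summed level of 174 with DMBA against 217 without, and the array without DMBA was the dimmest of the 5 wild-type arrays for 21. Cdk1, the mitotic kinase, stood at 3.16 with DMBA, 1.52 without, and 4.38 to 5.68 on the other wild-type arrays. Ccna2 (cyclin A) stood at 1.23, -0.49 and 2.39 to 3.89. Tyms, for thymidylate synthesis, was lower, at -1.21. Ccna2 came under 2-fold with normexp background correction (0.93) and Tyms with cyclic loess (-0.99). Mki67 had no named probe. Ccnd2 (cyclin D2) stood at 5.08 and 2.92 and the inhibitor gene Cdkn2c at 5.60 and 3.65, whereas Ccnd1 was at -0.26 and -0.37 and Myc at 3.86 and 5.15. Of 30 BCL2 family and caspase genes 2 were higher, Bok (0.68 with normexp) and Casp12, and 3 lower, Bax, Tnfrsf10b and Pmaip1.

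Ribosomal protein and respiratory chain genes gave 0 members over 2-fold, of 46 and 56. Their medians were -0.35 and -0.19, and reached 0.08 and 0.13 under other scalings, so no direction is given for them. The retinoid list held large differences in both directions, with 8 of 20 genes over 2-fold higher and 2 lower. Crabp1, a retinoic acid carrier, stood at 4.74 and 1.53, and Adh1 at 3.22 and 0.47, while Adh7, an epithelial alcohol dehydrogenase, stood at 1.35 and 4.61. Crabp1 lay between 3.82 and 5.23 on the 3 other wild-type arrays, so the array without DMBA was the one that stood apart for it. Hsd11b1, which regenerates active glucocorticoid, stood at 4.56 and 2.43, and with Akr1c18 it was 1 of 2 genes over 2-fold apart among 8 of steroid synthesis and inactivation.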

How the data were processed

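RNA of cultured mammary glands was hybridized by the authors to 1-colour CodeLink Mouse Whole Genome arrays (Cy5) and read with CodeLink Expression Analysis software. As deposited, a spot's intensity equals the spot mean minus the median of the background around it. The authors analysed the data in GeneSpring GX, and no genome build is given in the sources used here. The deposited series table holds normalized intensities rounded to 2 decimals, of which 97.5% of rows equal a spot's normalized intensity, and it was used for that check only.

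Gene probes (no control spots) were divided by their array's median and the log2 was taken, with values at or below 0 raised to the lowest value above 0. A good spot is one with the software's call G. For a spot good on 1 array and near background (call L) on the other, the bound sets it against the other array's lowest good value, or against its own value there if that is higher. RefSeq's gene table (GRCm38.p6) named 14763 of 15553 probes with a RefSeq accession, and each gene is given by its brightest probe over the 7 arrays. The named genes are the 15 largest log2 ratios each way, the 5 largest bounds each way, up to 4 members of each of 45 lists by size over 2-fold (the 2 brightest where fewer than 2 passed) and a fixed set of receptor, keratin, milk and damage genes. Others were chosen after their values were seen. Some genes that this rule names are not reported here. The members and lists were chosen with earlier results of these data known. Alternatives changed the scaling, background correction (normexp, offset 50, limma 3.58.1 in R 4.3.3), filter, threshold, probe and comparison array. Counting was tested on simulated data. Python 3.11.15, numpy 2.4.6 and pandas 2.3.3 were used. The number of arrays limits the precision, since no sample has a replicate.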

Additional observations from a re-analysis of the deposited data

How the results depend on the processing

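The counts of probes over 2-fold (1573 higher, 1139 lower) moved within 1.5 times with quantile normalization (1610 and 905), the 75th percentile (1609 and 1100), the deposited normalized intensities (1572 and 1140), both intensities above the array median (1088 and 795) and the C57 10-day array in place of the 24-day array (1461 and 1025). Cyclic loess gave 1840 and 776, normexp background correction 1014 and 429, spots good on at least 1 array 2822 and 2353, no filter 4068 and 4226, 1.5-fold 2834 and 3924, and 3-fold 676 and 242. Centring the ratios on their median, chosen after seeing the data, gave 1920 and 734. The higher share of probes over 2-fold was 58.0%, 70.3% with loess and with normexp, 72.3% when centred, 73.6% at 3-fold, 49.0% without a filter and 41.9% at 1.5-fold. Of the list medians beyond 2-fold, normexp moved the fibroblast matrix list to 2.54, metalloproteinases to 0.99 and endothelium to 1.46, the mean over all probes moved the IGF axis to 0.73, and including spots good on at least 1 array, or all spots, moved basement membrane to 1.36. Basement membrane (1.04) also came under 2-fold at 0.93 with normexp and 0.86 with both intensities above the array median, as did fatty acid and triglyceride synthesis (1.06) at 0.99 with normexp. No list median and no named gene that was over 2-fold changed sign under the alternatives run for it, whereas medians near 0 did (apoptosis, EGF family, Wnt, TGF-beta and BMP, skeletal muscle, erythroid, respiratory chain, ribosomal protein and steroid synthesis lists). Of 182 named genes good on both arrays, 27 crossed 2-fold in at least 1 of them, and 121 of 1092 alternative ratios moved by more than the SD of 0.31 between probes; the cause was not tested. Dim spots limit the comparison, since local background (80 to 83) exceeded the median intensity on every array. No paired analysis was possible because each group has 1 array.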

Other observations

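The 24-day C57 array without DMBA differed from the 10-day C57 array in 4.57% of probes, and from the Balb/c arrays in 9.26% and 7.22%. The Balb/c array and the C57 10-day array, which differ in strain and culture time, differed in 1.84%, the smallest share of the 10 pairs. The β-casein gene Csn2 and the medians of the adipocyte and macrophage lists were higher on both C57 24-day arrays than on the 3 others. The median level of the estrogen and progesterone response list was 2.97 with DMBA, 2.49 without, and 0.99 to 1.14 on the 3 others. For macrophages it was 4.13, 2.93 and 0.50 to 1.56. The proliferation list ran the other way, with 1.18 and 0.96 on the C57 24-day arrays and 2.08 to 3.13 on the 3 others. It was also low on the αERKO and βERKO arrays, at 0.98 and 1.42.

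Of the 2712 probes over 2-fold, 1027 had no gene name in the table used, so a large part of the difference between the arrays is not described by gene here.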
